A study of Mus musculus with 8 samples.

Results

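A set of 45 genes that act in G2 and mitosis was followed in mouse induced pluripotent stem (iPS) cells that lacked proofreading of mitochondrial DNA. The genes were chosen by symbol for their roles as mitotic kinases and cyclins, spindle checkpoint and kinetochore proteins, kinesins, spindle and cytokinesis proteins, and condensins. All 45 were found among the 34369 gene symbols of the deposited table, and all 45 passed the filter of a mean of at least 1 FPKM (a fragment count divided by transcript length and by the library's mapped fragments), which left 11949 genes to test. FPKM are scaled to transcript length, so levels can be compared between genes.

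Cells enter mitosis when the kinase CDK1, bound to cyclin A or cyclin B, is freed of inhibitory phosphates by CDC25 phosphatases. Chromosomes are then condensed, captured by the spindle at their kinetochores and held until the spindle checkpoint is satisfied, after which the anaphase-promoting complex marks cyclin B and securin for destruction and the cell divides. Many of these genes are transcribed together late in the cell cycle. Pluripotent mouse cells cycle fast with a short G1 phase, and such transcripts are abundant in them.

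RNA-seq libraries came from 3 wild-type lines and 5 mutator lines, with littermate embryos as the source of the wild type. Both Polg alleles of the mutator lines carry D257A, a substitution that disables proofreading by POLG, the enzyme that copies mitochondrial DNA. In both groups the cells had been reprogrammed, kept on arrested feeder cells with LIF, and passaged on gelatin 1 time to deplete the feeders before total RNA was extracted. Strain was not given in these sources. Mutator libraries 1 and 2 were averaged and counted as 1 sample. The median of their scaled squared difference was 1.35 times the sampling value, against 6.06 to 21.8 times for the 12 other library pairs of a group, and a code is common to their column headers. The comparison therefore had 4 mutator and 3 wild-type samples, and the shared sample was called the mutator 1 and 2 pair. A number is also common to the 3 wild-type headers, so these samples may have a common embryo, and embryo and genotype cannot then be told apart. P-values measure the spread between these samples.

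Several values of whole libraries bear on the comparison. Polg itself averaged 9.48 ± 0.54 FPKM over wild-type (SD, n = 3) and 10.2 ± 1.93 FPKM over mutator samples (SD, n = 4), and its transcript level does not report on a point substitution. Depth was not recorded with the FPKM, but the steps between low values implied 25800000 to 75600000 fragments per library. The mean log2(FPKM + 1) over all tested genes was 2.81 to 3.01 in wild-type and 2.79 to 3.04 in mutator samples. The pluripotency list, which includes Pou5f1 and Sox2, had a mean log2 level of 4.87 to 5.14 in wild-type and 4.56 to 5.13 in mutator samples. Of its 18 tested genes, 10 had a change below 0, and 1 was called, Tbx3, which was higher (log2 change 1.31, limma adjusted p = 0.039). Another 3 of the 18 (16.7%) were lower at an unadjusted p below 0.05, against 16.8% of all genes. In the same 3 all mutator samples lay below all wild-type samples, against 16.2% of all genes. They were Tdgf1 at -1.50, Dppa4 at -0.86 and Pou5f1 at -0.85, with limma adjusted p of 0.051, 0.052 and 0.072. The feeder fibroblast list, with Col1a1, was at 1.74 to 2.07 and 1.99 to 3.16, and all 19 of its tested genes had a change above 0. Of these 19, 0 were called, against 2.95% of all genes called higher. At an unadjusted p below 0.05, 4 were higher, and 3 had all mutator samples above all wild-type samples, against 13.6% and 12.4% of all genes. The primitive endoderm list was at 1.19 to 1.23 and 1.34 to 2.87, and all 10 of its tested genes had a change above 0. Of these 10, 0 were called, 6 were higher at an unadjusted p below 0.05, and 7 had all mutator samples above all wild-type samples, against 13.6% and 12.4% of all genes. The feeder and endoderm lists held 22 and 19 genes, of which the filter kept 19 and 10. Its mean covers all 8 libraries, so some genes with a wild-type mean below 1 FPKM passed through their mutator values. These were Dcn, Col6a2, Twist1 and Pdgfrb in the first list and Gata4, Pdgfra and Cubn in the second. The counts of changes above 0 and of higher genes in these 2 lists are therefore partly fixed by the filter. Late markers in that list differed: Afp and Ttr were at or near 0 in all libraries, while Cubn averaged 0.29 FPKM in wild-type samples and was at 2.34 FPKM in mutator 3 and 5.92 FPKM in mutator 5. These are bulk samples, in which fewer cells of a type and less RNA per cell cannot be told apart.

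The promoters of 4 members are shown to set out the motifs that late cell cycle genes are known for, in genes chosen after their values were seen because those values differed. All 4 bear the first motif, and neither searched form of the second was found for Ccnb1. The mutator means of Cdk1, Ccnb1 and Top2a were 48.2%, 62.7% and 60.6% of the wild-type mean, and that of Ccnb2 was 95.8%. The CCAAT box is bound by the factor NF-Y. The cell cycle genes homology region, searched here only as TTTGAA or TTCGAA, is bound by the MuvB complexes. Each line gives the 250 bases before the RefSeq start site (GRCm38.p6), read in the direction of transcription. Capitals mark the letters of both motifs on either strand, so a box on the other strand is printed as its reverse complement and reads ATTGG. The windows are chr10:69352913-69353162 for Cdk1, chr13:100786487-100786736 for Ccnb1, chr9:70421555-70421804 for Ccnb2 and chr11:99024190-99024439 for Top2a, all on the minus strand.
Cdk1: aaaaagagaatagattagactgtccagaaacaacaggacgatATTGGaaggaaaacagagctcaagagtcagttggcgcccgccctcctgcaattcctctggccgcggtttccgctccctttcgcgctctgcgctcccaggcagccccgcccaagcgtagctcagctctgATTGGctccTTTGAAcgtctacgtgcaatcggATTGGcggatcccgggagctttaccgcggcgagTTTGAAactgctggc
Ccnb1: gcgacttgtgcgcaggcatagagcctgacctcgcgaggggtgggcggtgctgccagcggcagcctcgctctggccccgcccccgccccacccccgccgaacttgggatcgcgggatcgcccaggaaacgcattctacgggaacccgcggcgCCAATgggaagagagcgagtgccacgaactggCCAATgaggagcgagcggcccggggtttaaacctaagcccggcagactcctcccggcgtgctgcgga
Ccnb2: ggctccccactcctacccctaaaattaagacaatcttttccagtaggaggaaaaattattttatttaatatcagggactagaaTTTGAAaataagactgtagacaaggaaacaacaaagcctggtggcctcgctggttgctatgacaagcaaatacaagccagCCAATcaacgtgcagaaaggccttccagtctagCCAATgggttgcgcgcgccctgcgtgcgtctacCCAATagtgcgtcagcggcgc
Top2a: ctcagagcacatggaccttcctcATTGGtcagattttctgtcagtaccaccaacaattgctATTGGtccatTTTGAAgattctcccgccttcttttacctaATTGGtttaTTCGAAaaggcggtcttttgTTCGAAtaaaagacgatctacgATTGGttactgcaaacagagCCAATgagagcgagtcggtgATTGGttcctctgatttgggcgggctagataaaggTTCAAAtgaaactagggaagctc
The Cdk1 promoter held 3 CCAAT and 2 TTTGAA matches, the nearer TTTGAA starting 15 bases before the start site. The Ccnb1 window held 2 CCAAT matches and neither searched form of the second motif. Ccnb2 held 3 CCAAT matches at -87, -54 and -21, with TTTGAA at -167 and again at position 5 after the start, outside the printed bases. Top2a held 6 CCAAT, 2 TTTGAA and 2 TTCGAA matches.

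Over the 38 members with a RefSeq promoter window, from 250 bases before to 50 after the start site, CCAAT was found in 28 (73.7%) and TTTGAA in 28 (73.7%). Among all 27025 genes with a window, the shares were 37.9% and 18.1%. TTCGAA was in 4 of the 38 (10.5%), against 1.57% of all genes. Either form of the homology region was in 30 members (78.9%), against 19.4% of all genes, and 26 members (68.4%) held it together with CCAAT, against 7.70%. Both strands were searched, and none of the motifs contains another. Among the 12 members with a window and an unadjusted p below 0.05 for mutator against wild type, 6 held CCAAT (50%) and 8 held either form of the homology region (66.7%). Among the other 26 members, 22 held CCAAT (84.6%) and 22 held the homology region (84.6%), and these shares are given with no test. The first base of the CCAAT matches lay at a median of -71, and that of the TTTGAA matches at 3, next to the start site. Smc4, Incenp, Kif20a, Tpx2, Cdc25c, Aurkb and Ccna2 had no window.

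The comparison asked how the transcript levels of mitotic genes differed between mutator and wild-type iPS cells. Most of the 45 were at lower values in mutator samples, and 0 were called. With limma on log2(FPKM + 1) and adjustment over all 11949 genes, 0 of 45 were lower and 0 were higher at an adjusted p below 0.05, where 4.54% of all genes were called lower and 2.95% higher. At an unadjusted p below 0.05, 14 of 45 (31.1%) were lower, against 16.8% of all genes, and 0 were higher, against 13.6%. The 14 were Cdk1, Ccna2, Ccnb1, Birc5, Bub3, Mad2l1, Ttk, Nuf2, Ndc80, Kif20a, Kif20b, Kif2c, Top2a and Smc2. Their mutator means were 48.2% to 68.1% of the wild-type mean, and their adjusted p lay between 0.054 and 0.11. The same 14 were called lower when libraries were scaled by median-of-ratios size factors, where 11% of all genes were called lower. With all 8 libraries counted 13 were called lower (10.9% of all genes), with array weights 15 (12.3%), with a mean of at least 5 FPKM 3 of 44 (8.21%), and without mutator replicate 5 it was 5 (3.56%).

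The log2 change lay below 0 in 37 of 45 members, against 52.4% of all genes, and its median was -0.36, against -0.03 over all genes tested. This direction depended on the scaling: with each library rescaled to the same sum (TPM), the members' median was 0.13, the median of all genes was 0.37 and 16 of 45 lay below 0. The distance of the members' median from that of all genes was then -0.23. The members were also abundant, with a median wild-type level of 27.1 FPKM, against 5.13 FPKM for all genes tested. Raising the filter to 5 FPKM left 6221 genes with a median change of -0.15, and 44 members with one of -0.37. The distance was -0.21 with that filter, against -0.33 with the filter of 1 FPKM. The shares of all genes given here were not matched to the members' level. The changes of single members ran from -1.06 for Cdk1 to 0.41 for Cdc25b, and 11 of 45 lay within 0.15 of 0. In 14 members all 4 mutator samples lay below all 3 wild-type samples (31.1%, against 16.2% of all genes), and in 0 members all lay above (against 12.4%). Those 14 were the genes named above with Tpx2 in place of Ndc80.

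**Figure D1:**
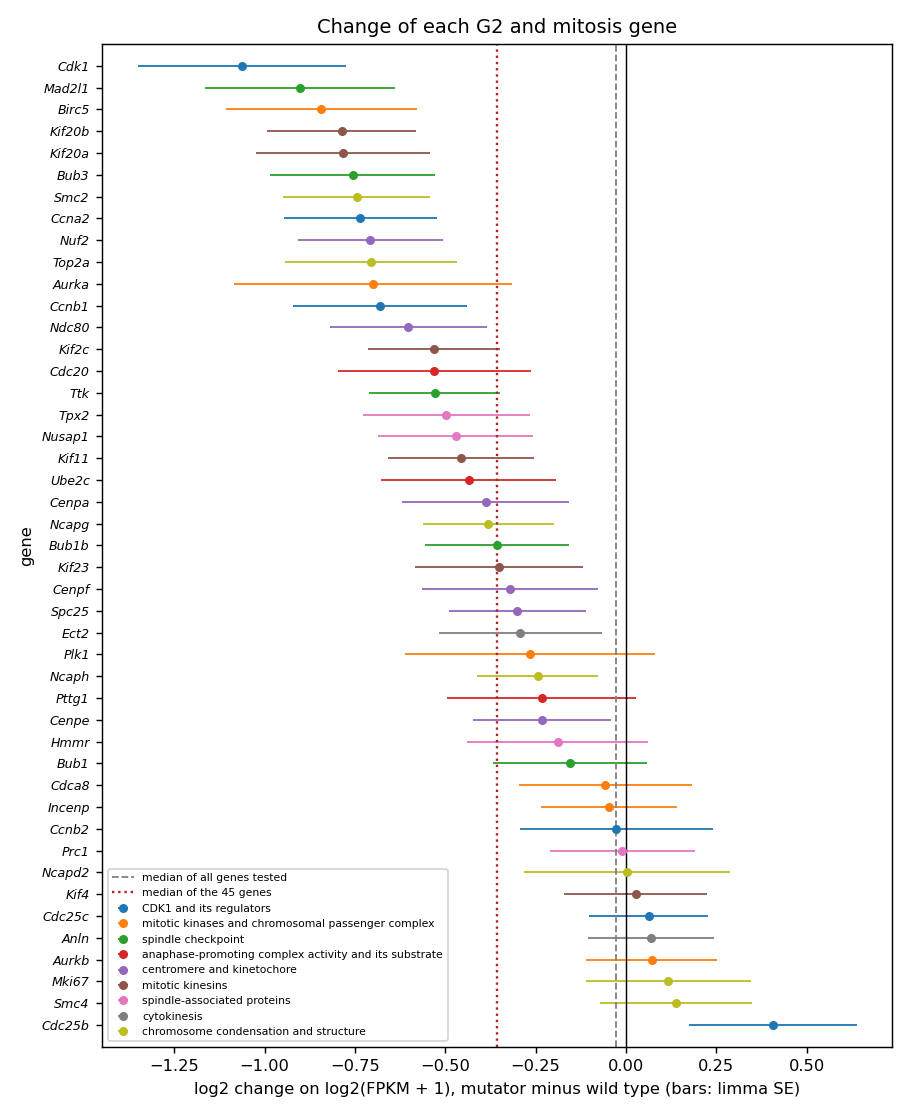
Log2 change (mutator minus wild type, on log2(FPKM + 1)) of the 45 G2 and mitosis genes, ordered by value and coloured by role, with bars of 1 limma SE (4 mutator and 3 wild-type samples). Points run from -1.06 to 0.41 around a median of -0.36 (dotted), left of the median of all genes at -0.03 (dashed), and with TPM scaling the median of the 45 was 0.13.

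The members at the left of the plot of log2 changes came from different steps of mitosis: the kinase Cdk1, the checkpoint gene Mad2l1, the survivin gene Birc5, the kinesins Kif20b and Kif20a, and the condensin gene Smc2. Members of the same complexes, such as Aurkb, Smc4 and Ncapd2, lay at its right end.

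The mutator samples differed among themselves. The mutator 1 and 2 pair was under every wild-type sample in 38 of 45 members, within their range in 7 and above it in 0. Mutator 3 lay below in 28 and above in 7, and mutator 4 below in 33 and above in 2. Mutator 5 lay below in 16, within in 16 and above in 13. For comparison, the shares of all tested genes below the wild-type range were 41.1% in the pair, 42.9% in mutator 3, 40.4% in mutator 4 and 25.6% in mutator 5, and the members' shares were 84.4%, 62.2%, 73.3% and 35.6%. Mutator 5 was also the sample with the most genes above the wild-type range, at 44.2% of all tested genes, against 33.0% in the pair, 26.8% in mutator 3 and 26.1% in mutator 4.

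**Figure D2:**
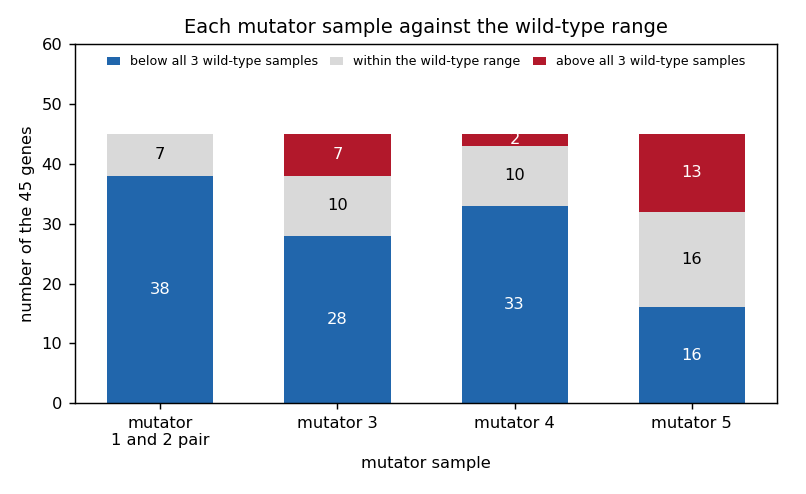
Number of the 45 G2 and mitosis genes whose FPKM lay below all 3 wild-type samples, within their range or above them all, in each of the 4 mutator samples. The mutator 1 and 2 pair has 38 below and 0 above, and mutator 5 has 16 below and 13 above.

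As the plot of counts by mutator sample shows, the pair and mutator 5 stood at the ends. The median difference of the members from the wild-type mean was -0.76 in the pair, -0.34 in mutator 3, -0.41 in mutator 4 and 0.00 in mutator 5, on the log2 scale. The medians of all genes were -0.07, -0.11, -0.09 and 0.14. The pair was the lowest of the 4 samples in 37 members, and mutator 5 the highest in 38. Among wild-type samples, replicate 1 was highest in 41 of 45 members and replicate 3 lowest in 32. The mean log2 level of all genes tested had the same order, at 3.01, 2.84 and 2.81 in wild-type 1, 2 and 3. In the pair and mutator 3, 4 and 5 that mean was 2.83, 2.79, 2.80 and 3.04. Shares of all genes for these counts of highest and lowest samples were not computed.

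Markers of other cells moved with some of these samples. The feeder fibroblast list had a mean log2 level of 3.10 in the pair, 3.16 in mutator 3, 1.99 in mutator 4 and 2.10 in mutator 5. The primitive endoderm list was at 1.81, 1.84, 1.34 and 2.87 in the same order. In mutator 4, a single sample, the feeder list was within the wild-type range of 1.74 to 2.07 and the primitive endoderm list was above the wild-type range of 1.19 to 1.23, and 33 of 45 members lay below all wild-type samples. The part of these markers in the members' values was not tested.

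**Figure D3:**
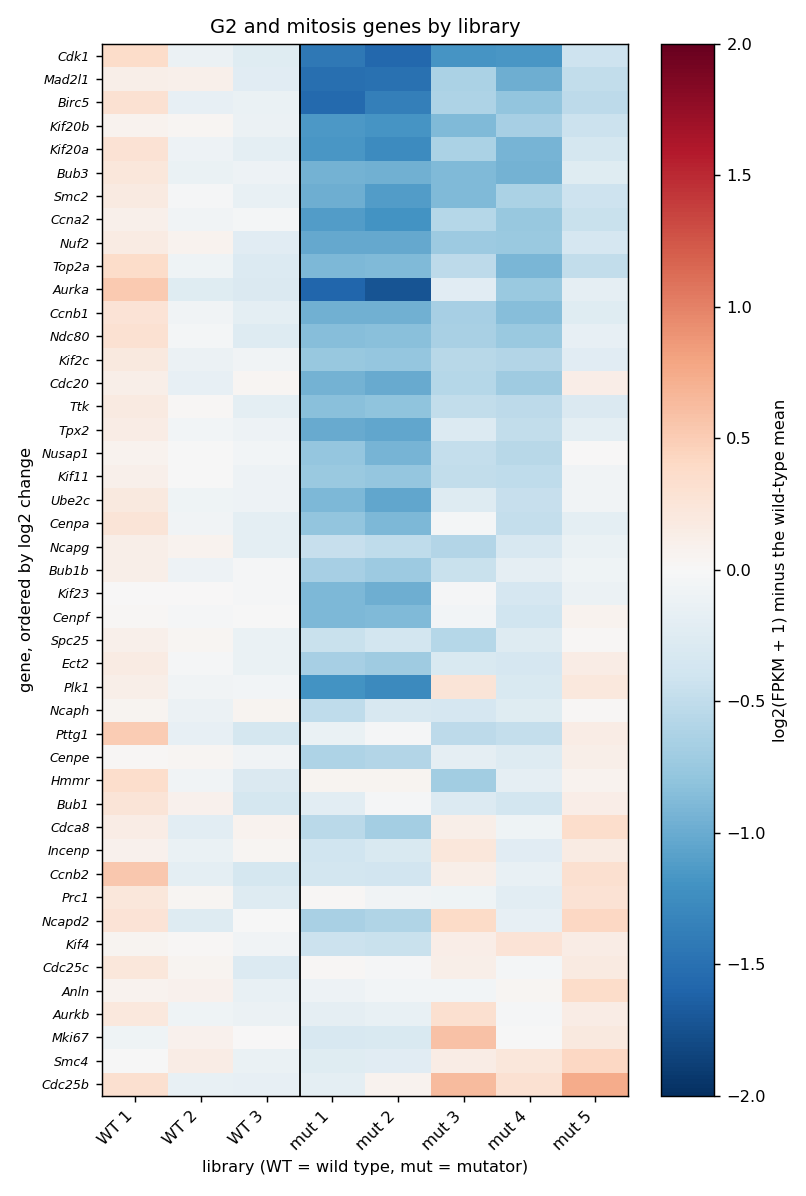
Level of each of the 45 G2 and mitosis genes (vertical axis, ordered by log2 change) in each of the 8 libraries (horizontal axis), as the difference of log2(FPKM + 1) from the wild-type mean, where blue is lower and red is higher. Mutator 1 and 2 are the darkest blue over the upper genes, mutator 5 is the palest of the mutator libraries, and wild-type 1 is redder than wild-type 2 and 3.

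In the heat map the blue of mutator 1 and 2 reached down through most of the genes, and red was seen in mutator 3 and 5 at the bottom, where Smc4, Mki67 and Cdc25b stand.

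CDK1, its cyclins and its phosphatases divided within the group. Of 6 genes, 3 were lower at an unadjusted p below 0.05, against 16.8% of all genes. In 3, all mutator samples lay below all wild-type samples, against 16.2% of all genes. Cdk1, the kinase that drives entry into mitosis (chr10:69335146-69352938, GENCODE M21 on GRCm38), was at 77.3, 54.7 and 50.03 FPKM in wild-type samples. In mutator libraries 1 to 5 it was at 21.6, 19.4, 25.7, 26.05 and 44.7 FPKM. All mutator libraries lay below all wild-type samples, with mutator 5 nearest to them. The means were 60.7 ± 14.6 FPKM in wild-type (SD, n = 3) and 29.2 ± 10.6 FPKM in mutator samples (SD, n = 4), 48.2% of the wild-type level. The log2 change was -1.06 (SE 0.29, limma adjusted p = 0.057), the lowest of the 45 members.

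Ccna2 encodes cyclin A, which binds CDK1 and CDK2 (chr3:36564865-36572150). It was at 58.3, 52.1 and 53.2 FPKM in wild-type samples and at 24.4, 23.3, 36.2, 31.8 and 39.7 FPKM in mutator libraries 1 to 5. The groups did not overlap, and the log2 change was -0.74 (SE 0.21, limma adjusted p = 0.066). Exons of Ccna2 share 12.5% of their bases with Exosc9 on the opposite strand, and strandedness was not given in the sources used here. Ccnb1 encodes cyclin B1, the main mitotic partner of CDK1 (chr13:100778650-100786570), and had the second highest wild-type level of the members. It was at 163, 128 and 117 FPKM in wild-type samples, and at 68.4, 68.6, 84.8, 74.0 and 114 FPKM in mutator libraries. Mutator 5 came close to the lowest wild-type sample without reaching it, and the change was -0.68 (SE 0.24, adjusted p = 0.107).

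The paralogue Ccnb2, which encodes cyclin B2 and was singled out after its values were seen, was not at a lower level. It was at 33.5, 19.7 and 17.5 FPKM in wild-type samples and at 17.3, 17.1, 24.5, 20.2 and 28.4 FPKM in mutator libraries. The groups overlapped, with wild-type 1 the highest of all, and the change was -0.03 (SE 0.27, limma adjusted p = 0.957). A difference from Ccnb1 can be read within each library, where it does not depend on scaling. The ratio of Ccnb1 to Ccnb2 FPKM was 4.86, 6.51 and 6.71 in wild-type samples and 3.99, 3.45, 3.66 and 4.005 in the pair and mutator 3, 4 and 5. All mutator ratios lay below all wild-type ratios. For Cdk1 over Ccnb2 the ratios were 2.31, 2.77 and 2.87 against 1.19, 1.05, 1.29 and 1.57, again without overlap. Ratios of 33.4% of all pairs of tested genes above 0 did not overlap either, in one direction or the other.

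Cdc25b and Cdc25c, which encode phosphatases that activate CDK1, had the lowest wild-type levels of the 45 genes. Cdc25b was at 2.39 ± 0.68 FPKM in wild-type (SD, n = 3) and 3.54 ± 1.07 FPKM in mutator samples (SD, n = 4). Its mutator 3 and 5 values, 4.19 and 4.61 FPKM, lay above all wild-type samples, and its change of 0.41 (SE 0.23, limma adjusted p = 0.268) was the highest of the members. Cdc25c was at 6.41 ± 1.25 and 6.68 ± 0.54 FPKM, with a change of 0.06 (adjusted p = 0.821) and overlapping groups.

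**Figure D4:**
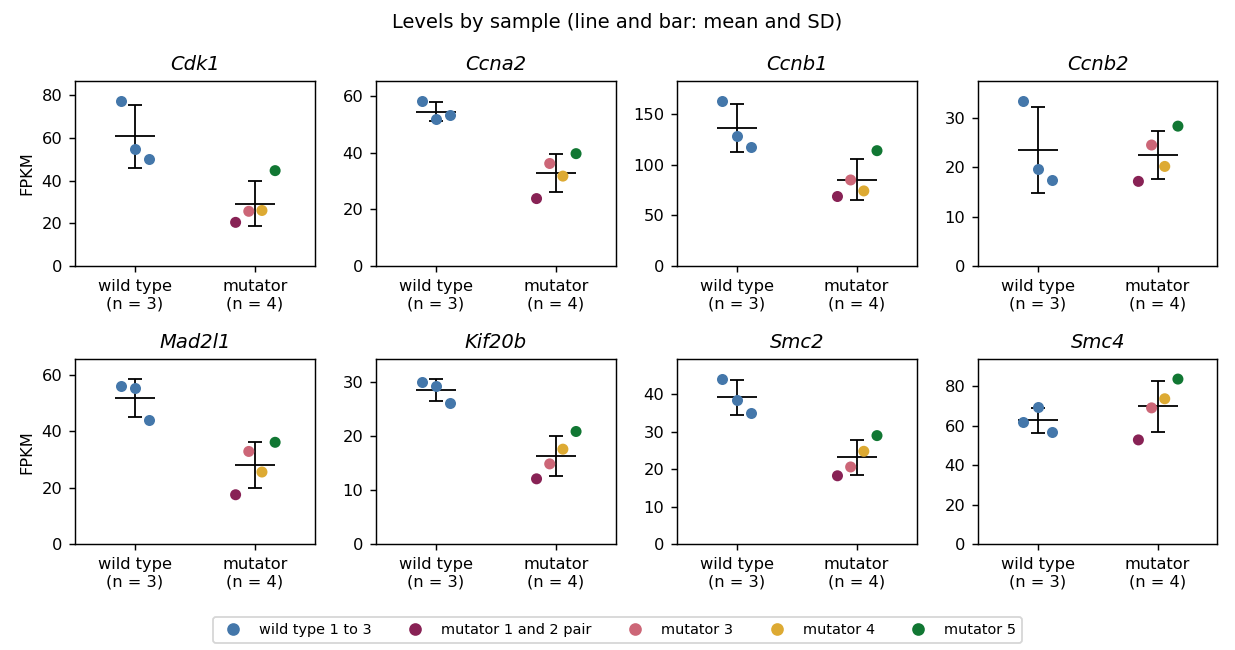
FPKM of Cdk1, Ccna2, Ccnb1, Ccnb2, Mad2l1, Kif20b, Smc2 and Smc4 in each sample, with the mean (line) and SD (bar) of 3 wild-type and 4 mutator samples, and each mutator sample in its own colour. In the panels of Cdk1, Ccna2, Ccnb1, Mad2l1, Kif20b and Smc2 no mutator point reaches a wild-type point, and in those of Ccnb2 and Smc4 the groups overlap.

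The plot of FPKM by sample sets partners side by side: Ccnb2 and Smc4 show overlapping groups beside Ccnb1 and Smc2, which do not. In every panel mutator 5 (green) is the highest of the mutator points and the pair (dark red) is the lowest.

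Among the mitotic kinases and the chromosomal passenger complex, 1 of 6 genes (16.7%) had an unadjusted p below 0.05, against 16.8% of all genes. That gene was Birc5, which encodes survivin, the subunit that carries the complex to centromeres (chr11:117849251-117855743). It was at 68.2, 49.3 and 50 FPKM in wild-type samples and at 18.2, 20.8, 35.8, 31.5 and 38.3 FPKM in mutator libraries 1 to 5. Every mutator library lay below every wild-type sample, and the change was -0.84 (SE 0.26, limma adjusted p = 0.082). Aurka encodes Aurora A, the kinase of centrosomes and spindle poles (chr2:172356190-172370535). It was at 34.6, 20 and 19.2 FPKM in wild-type samples and at 7.21, 6.47, 20.2, 13.7 and 20.9 FPKM in mutator libraries. The spread was wide in both groups: mutator 3 and 5 lay within the wild-type range and the pair far below it, and the change was -0.70 (SE 0.38, adjusted p = 0.251).

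The partners of Birc5 had mutator means near those of wild type, but single mutator samples lay below and above the wild-type range. Aurkb, which encodes Aurora B, the kinase of the complex, was at 15.8 ± 2.17 FPKM in wild-type (SD, n = 3) and 16.7 ± 2.58 FPKM in mutator samples (SD, n = 4), a change of 0.07 (limma adjusted p = 0.815). Incenp, which encodes its scaffold, was at 7.62 ± 0.70 and 7.45 ± 1.64 FPKM, a change of -0.05 (adjusted p = 0.888). Its values in the pair and mutator 4 lay below all wild-type samples, and those in mutator 3 and 5 lay above them all. Within libraries the ratio of Aurkb to Birc5 FPKM was 0.269, 0.297 and 0.289 in wild-type samples and 0.715, 0.555, 0.491 and 0.457 in the pair and mutator 3, 4 and 5. All mutator ratios were higher than all wild-type ratios. The ratio of Birc5 to Cdca8, the borealin gene, was 5.04, 4.79 and 3.90 against 2.55, 2.71, 2.77 and 2.44, lower in every mutator sample. The share of all pairs of tested genes above 0 without overlap, in either direction, was 33.4%. Plk1, the polo-like kinase gene, was split by sample, with 5.43 and 5.10 FPKM in the libraries of the pair. It reached 16.5 FPKM in mutator 3 and 16.1 FPKM in mutator 5, above the highest wild-type sample at 15.0 FPKM.

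The spindle checkpoint genes, which hold anaphase until chromosomes are attached, all had changes below 0. Of these 5 genes, 3 were lower at an unadjusted p below 0.05, against 16.8% of all genes. Mad2l1 encodes MAD2, the inhibitor of CDC20 (chr6:66535390-66547220). It was at 55.9, 55.3 and 44.0 FPKM in wild-type samples and at 17.5, 17.7, 32.9, 25.6 and 36.1 FPKM in mutator libraries. No mutator library reached the wild-type range, and the change was -0.90 (SE 0.26, limma adjusted p = 0.068). Bub3, whose product brings BUB1 and BUBR1 to kinetochores (chr7:131560222-131571895), was at 43.2, 33.3 and 34.2 FPKM in wild-type samples and at 18.6, 18.3, 19.3, 18.5 and 31.01 FPKM in mutator libraries. Mutator libraries 1 to 4 lay close together and mutator 5 stood apart, still below all wild-type samples, and the change was -0.76 (SE 0.23, adjusted p = 0.074). Ttk, the MPS1 kinase gene, was at 14.6 ± 2.01 FPKM in wild-type and 9.85 ± 1.61 FPKM in mutator samples, without overlap. The changes of Bub1 and Bub1b were -0.15 and -0.36, and the groups overlapped in both.

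Among the genes of anaphase-promoting complex activity, 0 of 3 had an unadjusted p below 0.05, and all 3 changes were below 0. Cdc20 encodes the mitotic activator of the complex (chr4:118432901-118437352). It was at 42.2, 34.5 and 40.1 FPKM in wild-type samples and at 19.5, 18.8, 25.9, 23.2 and 42.6 FPKM in mutator libraries. Mutator 5 was the highest of all samples and the other mutator libraries lay below every wild-type sample, and the change was -0.53 (SE 0.27, limma adjusted p = 0.218). Ube2c, the ubiquitin-conjugating enzyme gene of the complex, was at 50.2 ± 5.998 FPKM in wild-type and 37.7 ± 9.64 FPKM in mutator samples, a change of -0.44 (adjusted p = 0.257), with mutator 5 within the wild-type range. Exons of Ube2c share 22.8% of their bases with Tnnc2 on the opposite strand.

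All 6 centromere and kinetochore genes had changes below 0, with a median of -0.35. Of the 6, 2 were lower at an unadjusted p below 0.05, against 16.8% of all genes. Nuf2 and Ndc80 encode partners in the NDC80 complex, which binds spindle microtubules. Nuf2 (chr1:169497934-169531464) was at 17.4, 16.2 and 12.9 FPKM in wild-type samples and at 7.05, 7.06, 8.87, 8.80 and 11.9 FPKM in mutator libraries. All mutator libraries lay below the wild-type range, mutator 5 by about 1 FPKM, and the change was -0.71 (SE 0.20, limma adjusted p = 0.064). Ndc80 (chr17:71496100-71526857) was at 15.5, 12.1 and 10.2 FPKM and at 6.40, 6.54, 7.50, 6.99 and 10.97 FPKM. Here mutator 5 lay above the lowest wild-type sample, and the change was -0.60 (SE 0.22, adjusted p = 0.111). The ratio of Ndc80 to Nuf2 overlapped between the groups, at 0.81 ± 0.07 in wild-type and 0.87 ± 0.06 in mutator samples. Spc25, Cenpa, Cenpe and Cenpf had changes of -0.39 to -0.23 with overlapping groups.

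Of the 6 mitotic kinesins, 3 were lower at an unadjusted p below 0.05, against 16.8% of all genes. In all 3 the groups did not overlap, against 16.2% of all genes with every mutator sample below. Kif20b, a kinesin gene that acts in cytokinesis (chr19:34922361-34975745), had the smallest adjusted p of the 45 members. It was at 30.0, 29.2 and 26.1 FPKM in wild-type samples and at 12.3, 11.9, 14.9, 17.6 and 20.8 FPKM in mutator libraries. The groups were separated by more than 5 FPKM, and the change was -0.79 (SE 0.21, limma adjusted p = 0.054). Kif20a, whose product brings the passenger complex to the central spindle (chr18:34624613-34633277), was at 30.8 ± 5.90 FPKM in wild-type and 17.7 ± 4.73 FPKM in mutator samples, a change of -0.78 (adjusted p = 0.077). Its exons share 29.3% of their bases with Cdc23 on the opposite strand. Kif2c, which encodes the microtubule depolymerase MCAK, was at 21.2 ± 2.60 and 14.5 ± 2.51 FPKM. Kif4, the chromokinesin gene on the X chromosome, had a change of 0.03 (adjusted p = 0.943), with the pair below and mutator 3, 4 and 5 above all wild-type samples.

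The 4 spindle-associated genes had changes of -0.50 to -0.01. Tpx2, whose product activates Aurora A on the spindle (chr2:152847964-152895321), was at 37.7, 32.6 and 31.6 FPKM in wild-type samples and at 16.3, 15.9, 27.9, 23.8 and 29.4 FPKM in mutator libraries. The groups did not overlap, but mutator 3 and 5 lay near the wild-type range, and the change was -0.50 (SE 0.23, limma adjusted p = 0.186). Nusap1, a microtubule-bundling protein gene, was at 21.7 ± 1.07 and 15.8 ± 4.27 FPKM, a change of -0.47 (adjusted p = 0.179). Of the cytokinesis genes, Ect2, which activates RhoA at the cleavage site, had a change of -0.29 (adjusted p = 0.402). Its mutator 5 value lay within the wild-type range and the other mutator samples lay below it. Anln, the anillin gene, had a change of 0.07 (adjusted p = 0.811), with mutator 5 above the wild-type range and the other mutator samples within it.

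Genes of chromosome condensation and structure divided as the cyclins did. Top2a, which encodes the topoisomerase that untangles sister chromatids (chr11:98992943-99024189), had the highest wild-type level of the members. It was at 223, 162 and 142 FPKM in wild-type samples and at 91.8, 93.3, 119.6, 90.9 and 122 FPKM in mutator libraries. All mutator libraries lay below all wild-type samples, and the change was -0.71 (SE 0.24, limma adjusted p = 0.096). Smc2 encodes an ATPase subunit that every condensin contains (chr4:52439243-52488260). It was at 43.9, 38.3 and 34.9 FPKM in wild-type samples and at 19.2, 17.3, 20.6, 24.7 and 28.9 FPKM in mutator libraries, again without overlap, and the change was -0.75 (SE 0.20, adjusted p = 0.059).

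Smc4 encodes the partner ATPase of Smc2 (chr3:69004738-69034623) and did not share its values. It was at 62.0, 69.4 and 57.0 FPKM in wild-type samples and at 52.5, 53.4, 69.2, 73.8 and 83.7 FPKM in mutator libraries. The pair lay below the wild-type range and mutator 4 and 5 above it, and the change was 0.14 (SE 0.21, limma adjusted p = 0.686). The ratio of Smc2 to Smc4 FPKM was 0.708, 0.553 and 0.612 in wild-type samples and 0.345, 0.298, 0.335 and 0.345 in the pair and mutator 3, 4 and 5. The mutator ratios were lower in every sample and close to each other. Smc2 was lower in ratio, without overlap, against each of the other condensin I genes too, namely Ncapd2, Ncapg and Ncaph. These ratios share Smc2 as numerator, so they are not separate observations. Among all pairs of tested genes above 0, 33.4% did not overlap in either direction. Ncapd2 had a change of 0.00 (adjusted p = 0.995). Mki67, which encodes the Ki-67 protein that coats mitotic chromosomes, was at 27.1 ± 1.74 and 30.2 ± 8.31 FPKM, a change of 0.12 (adjusted p = 0.753).

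Ratios were taken for 32 pairs of members that work in the same complex, chosen with the values known and given with no test. In 14 of the 32 (43.8%) the 4 mutator and 3 wild-type ratios did not overlap. Among all 67355421 pairs of tested genes above 0 in every sample, 33.4% did not overlap, so separation of a ratio was common in these libraries.

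Among other genes of G2 and mitosis, 123 genes from lists of the same pathways were tested. The median change was -0.31, 8 of 123 (6.5%) were lower at a limma adjusted p below 0.05, against 4.54% of all genes, and 0 were higher. Kinetochore genes held 4 of the 8. Cenpp, of the inner kinetochore, fell from 11.7 ± 1.13 FPKM in wild-type (SD, n = 3) to 4.87 ± 0.41 FPKM in mutator samples (SD, n = 4), a log2 change of -1.12 (SE 0.14, limma adjusted p = 0.021). Cenpm, also of the inner kinetochore, fell by 0.95 on the log2 scale (adjusted p = 0.041), and Ska1, whose product tracks microtubule ends, by 0.95 (adjusted p = 0.037). Oip5, which helps to load the centromeric histone, fell by 0.64 (adjusted p = 0.042), and its exons overlap those of Nusap1 on the opposite strand. The other 4 were Anapc10 and Cdc27, subunits of the anaphase-promoting complex, with log2 changes of -0.87 and -0.73, Haus3 of the augmin complex at -0.88, and Shcbp1 at -0.98, with adjusted p between 0.033 and 0.048. All 8 had changes below 0 in every setting that tested them. Without the mutator 1 and 2 pair, and without each wild-type sample in turn, 0 of 123 were called lower, in fits that called 1 to 4 of all 11949 genes lower, and the median of the 123 was -0.32 to -0.20. Without mutator 4 only Cenpp was called, in a fit that called 0.895% of all genes lower. With TPM scaling 0 were called lower, against 0.176% of all genes, and the median of the 123 was 0.17.

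In the remaining lists 0 genes were called, and the gene with the smallest p is given for each. Tfdp1 was at -0.76 (limma adjusted p = 0.066) among 13 transcription factor genes, Cks2 at -0.68 (0.106) among 12 genes of CDK1 control, and Cdca5 at -0.36 (0.231) among 14 cohesin and separase genes. Ncapg2 was at -0.51 (0.067) among 3 further condensin genes, and Kif18a at -0.49 (0.132) among 7 further kinesins. Foxm1 and Mybl2, transcription factor genes that drive G2 and mitosis genes and were singled out after their values were seen, were at 5.48 ± 0.50 and 53.7 ± 15.3 FPKM in wild-type samples. In mutator samples they were at 7.50 ± 2.05 and 87.1 ± 27.4 FPKM, with changes of 0.36 (adjusted p = 0.306) and 0.67 (adjusted p = 0.163). Over the 13 transcription factor genes, 6 changes lay below 0 and 7 above. At an unadjusted p below 0.05, 3 were lower and 2 higher, against 16.8% and 13.6% of all genes. Nfyc of NF-Y was at -0.72 and Lin9 of MuvB at -0.50 (limma adjusted p = 0.072 and 0.074).

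Of the tested genes outside these lists, those whose log2 level followed the members' mean most closely over the 7 samples were Rfc1, Ubr7, Birc6, 1110038F14Rik and Metap1, with Pearson r of 0.989 to 0.992. This is a description of samples that share libraries and group. Rfc1 was at 25.4, 21.1 and 20.3 FPKM in wild-type samples and at 12.6, 13.9, 18.7, 17.5 and 21.7 FPKM in mutator libraries, with the same order of a low pair and a high mutator 5. None of the 5 was called, with limma adjusted p of 0.144 to 0.317.

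**Figure D5:**
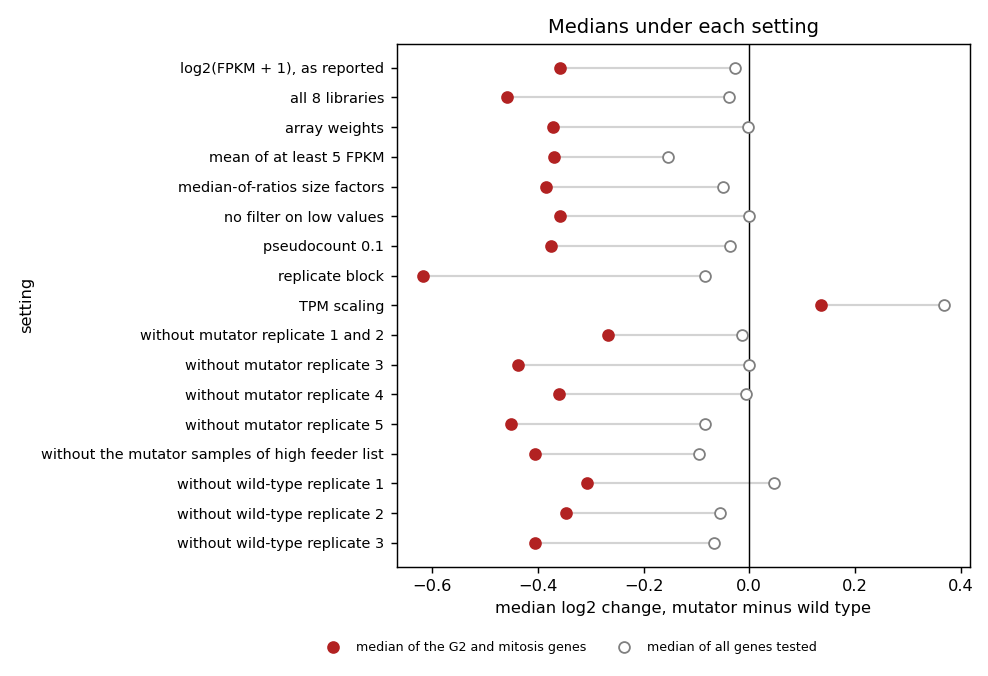
Median log2 change of the G2 and mitosis genes (filled) and of all genes tested (open) under each way of processing the same libraries. The filled points lie at -0.62 to -0.27 except with TPM scaling, where the members are at 0.13 and all genes at 0.37, and they lie left of the open point in every setting. The lowest filled point is the replicate block, from which mutator libraries with no same-numbered wild-type sample drop out.

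In the plot of medians by setting, the distance between the members and all genes kept its sign in each setting, while the position of both depended on TPM scaling. Data were simulated with 4 against 3 samples and 11949 genes, of which 200 were changed. In these, 14.5% of genes with a log2 change of -1 were recovered, and 95.5% of those with -2. The fit of the real data called 542 genes lower and 353 higher. Its adjusted threshold was therefore less strict, and its recovery is not given by these shares. For single members an exact two-sided permutation test of 4 against 3 samples cannot give a p below 0.057.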

How the data were processed

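The deposited values were FPKM per library, made by the authors with STAR and Cufflinks per the submitters' processing notes. Not given in the sources used here were tool versions, genome build, annotation, strandedness and the length of reads. No count test was applied. Of 37305 table lines, those of the 265 symbols listed more than 1 time were summed, and 31 missing cells were left missing. FPKM sums per library were 753985 to 1780534. FPKM keep no counting error, so no intervals for depth are given.

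The members and gene lists were chosen with earlier results of these data known. Groups came from sample titles. The test was limma 3.58.1 (lmFit, eBayes with trend, R 4.3.3) on log2(FPKM + 1), over the 11949 genes whose mean reached 1 FPKM, and p-values were adjusted by Benjamini-Hochberg, with 0.05 as the threshold. Log2 changes understate those of low genes. Mutator libraries 1 and 2 were averaged after a check on 1 transcript genes of at least 500 exonic bases and 20 implied fragments. Same-numbered samples were not paired: correlations of their deviations were 0.01, -0.01 and 0.05. The fit was tested on simulated data with 200 changed genes, with 0 calls when nothing was changed, and 1 and 11 false calls at log2 changes of -1 and -2.

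Members named by rule were, in each of 9 role groups, the 2 with the smallest p and any above 0, and the 3 with the highest and the lowest wild-type level. Others, such as Ccnb2, Plk1, Ttk, Kif2c, Bub1, Bub1b and Cdca8, were named after their values were seen. Of context lists, called genes up to 4, or the 1 with the smallest p, were named. Positions and exon overlaps came from GENCODE M21 (GRCm38) by gene ID, since the authors' build is not known. Promoters came from RefSeq (GRCm38.p6), the first window listed per gene. Alternatives covered pseudocount, filter, scaling, array weights, libraries counted, replicate block, each replicate left out and the samples of high feeder level. Other steps ran in Python 3.11.15 with SciPy 1.17.1, numpy 2.4.6, pandas 2.3.3 and, for figures, matplotlib 3.10.9.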

Additional observations from a re-analysis of the deposited data

Results flagged for a closer look

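Bub3 was at 31.01 FPKM in mutator 5, against 18.5 to 19.3 FPKM in the other 3 mutator samples. The gap was 0.914 of the group's range, above Dixon's 95% critical value for 4 samples. All 45 members were examined in this way, and chance marks about 5% of groups. In mutator 5 the other members were also at their highest mutator value in most cases (38 of 45 members, Bub3 included). The mean log2 level of all genes tested was also highest there, at 3.04 against 2.79 to 2.83 in the other mutator samples.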

How the results depend on the processing

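The number of members called lower by limma was 0 as reported, and depended on the setting. It was 13 of 45 with all 8 libraries counted (10.9% of all genes), 15 with array weights (12.3%), 14 with median-of-ratios size factors (11%) and 3 of 44, Cdk1, Kif20b and Nuf2, with a mean of at least 5 FPKM (8.21%), where fewer genes were tested. Counting mutator 1 and 2 separately treats near-identical libraries as independent. With each replicate left out in turn the count was 0 to 5. It was 5 (Bub3, Cdk1, Kif20b, Nuf2 and Smc2) without mutator replicate 5 and 0 without each other sample, where 0.00837% to 4.31% of all genes were called lower. It was 0 with no filter (0.0669% of all genes), with a pseudocount of 0.1 (5.11%), with TPM scaling (0.176%) and without the mutator samples of high feeder level (0.0167%), which leaves mutator 4 alone, assumed to vary like the others. The number called higher was 0 in all settings run.

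The median log2 change was -0.45 to -0.27 with each replicate left out, and 0.13 with TPM scaling, where 21 members changed sign. The cause was not tested. Below 0 in every setting, TPM included, were 16 members, among them Cdk1, Ccna2, Ccnb1, Birc5, Mad2l1, Kif20b, Top2a and Smc2. The replicate block compared samples that share only a number. With it the median was -0.62 with 0 members called, and 1 gene in all was called lower. Mutator libraries whose number no wild-type sample bears dropped out of that estimate. The near-identical pair entered it as separate libraries, so its median is not one of the same samples as the main fit. Depth was implied rather than recorded, and few log2 changes of -1 were recovered in the data simulated with 200 changed genes. For the other genes of G2 and mitosis, in settings chosen after seeing the data, the number called lower was 8 of 123 as reported. Counting all 8 libraries gave 23 (10.9% of all genes), array weights gave 27 (12.3%), and scaling by size factors gave 24 (11%). A pseudocount of 0.1 gave 10 (5.11%), and dropping the filter gave 1 (0.0669%). The replicate block gave 0 (0.00837%), as did TPM scaling (0.176%). Leaving out each replicate in turn gave 0 to 6, with 6 reached without mutator 3 (4.31% of all genes) and without mutator 5 (3.56%). Calls in the higher direction were 3 under array weights (10.7% of all genes) and 1 under TPM scaling (9.14%). Without the samples of high feeder level a single mutator sample is left, and the median of the 123 was -0.32.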
